A study of Mus musculus with 11 samples.

Results

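The genes described here are the 8 Btg, Tob and Gadd45 genes of the mouse, a set of antiproliferative genes chosen by symbol in the platform annotation: Btg1, Btg2, Btg3, Tob1, Tob2, Gadd45a, Gadd45b and Gadd45g. They are 8 genes beside a series in which 18193 genes have a probe set listing that gene alone. Such a probe set was found for 7 of the 8, and all 7 were among the 13100 genes tested. Btg3 had none, because its probe set also lists the predicted gene Gm7334. The 7 genes were read by 17 probe sets, and for each gene the one with the highest mean log2 signal over all arrays is called the main probe set.

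The cells came from livers of C57/Bl6 embryos at embryonic day 14.5, with no genotype change or treatment given for any group. They were stained for Ter119, a surface antigen of maturing red cells, and for CD71, the transferrin receptor, and sorted by flow cytometry into 5 fractions named R1 to R5. These fractions are taken as successive steps of red cell development, from R1, the least mature, to R5. Each fraction gave RNA for its own arrays, 11 in all: R2 and R3 have 3 each, R1 and R5 have 2 each, and R4 has 1. The question asked of the members was at which step their RNA level differed.

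BTG and TOB proteins form one family. They share an N-terminal domain that binds the Caf1 (Cnot7, Cnot8) deadenylases of the Ccr4-Not complex, which shorten the poly(A) tails of mRNAs, and several of them slow the passage from G1 to S phase. The GADD45 proteins are a separate family of small acidic proteins, induced by DNA damage and other stresses, which bind Mtk1 (Map3k4) upstream of the p38 and JNK kinases, the replication clamp Pcna and the Cdk1 to cyclin B complex. Erythroblasts divide only a few more times after Ter119 appears and then leave the cell cycle before they lose the nucleus.

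Every array had a trimmed mean signal of 500 units, and its median signal lay between 53.6 and 120.4 units. The 100 brightest probe sets held 8.12% to 16.92% of the summed signal, and arrays of 1 stage correlated at 0.851 to 0.95 over genes. The probe sets of pyruvate carboxylase at the 3' and 5' end, a control for the length of the labelled RNA, differed by 0.20 and 0.38 log2 units in R1, by 0.75 to 1.84 in R2, by 2.45 to 3.29 in R3, by 2.72 in R4 and by 4.62 and 2.27 in R5. Every array of R1 and R2 thus lay below every array of R3 to R5 in this control. RNA length and stage cannot be told apart at the step from R2 to R3, and the part of RNA length in the differences there was not tested. All 9 erythroid markers measured were higher in R3 than in R2, and their mean log2 signal went from 9.28 and 10.71 on the R1 arrays to 15.08 and 15.18 on the R5 arrays. The transferrin receptor gene Tfrc, which encodes the CD71 sorting marker, rose by 1.49 ± 0.32 log2 units from R2 to R3 (SE, adjusted p = 0.0125). The 8 hepatocyte markers rose at the same step, and their values stand beside the genes they move with. The number of arrays limits the precision. Whether replicate arrays stem from different litters or sorting runs is not stated in the labels, and a p-value here therefore reflects array-to-array spread that may be technical only. The labels do say that RNA of a replicate set was extracted on a single date, without saying whether a set is one replicate number across stages or the replicates of one stage, so extraction date and stage may be confounded. In such bulk fractions, fewer cells of a type and less RNA per cell cannot be told apart.

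The 250 bases before the annotated start are shown for 4 members. Btg2 and Gadd45a differed most between R2 and R3, and Btg1 and Gadd45b, a paralog of each, did not pass the test at that step. The sequences are RefSeq's for GRCm38.p6, written 5' to 3' on the strand of the gene, with capitals for matches to the motifs named after them. The windows lie at chr1:134079156-134079405 on the minus strand (Btg2), chr10:96616751-96617000 on the plus strand (Btg1), chr6:67037408-67037657 on the minus strand (Gadd45a) and chr10:80929841-80930090 on the plus strand (Gadd45b).
Btg2: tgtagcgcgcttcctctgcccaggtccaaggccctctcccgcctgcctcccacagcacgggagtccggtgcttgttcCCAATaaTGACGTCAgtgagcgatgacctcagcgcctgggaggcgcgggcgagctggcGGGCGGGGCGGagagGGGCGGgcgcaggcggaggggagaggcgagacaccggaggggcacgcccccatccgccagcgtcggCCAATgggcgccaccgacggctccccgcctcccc
Btg1: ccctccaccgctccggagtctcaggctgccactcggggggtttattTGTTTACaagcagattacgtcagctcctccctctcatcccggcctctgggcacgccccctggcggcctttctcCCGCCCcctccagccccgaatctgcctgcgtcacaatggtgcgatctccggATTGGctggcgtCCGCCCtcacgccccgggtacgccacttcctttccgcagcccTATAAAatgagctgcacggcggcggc
Gadd45a: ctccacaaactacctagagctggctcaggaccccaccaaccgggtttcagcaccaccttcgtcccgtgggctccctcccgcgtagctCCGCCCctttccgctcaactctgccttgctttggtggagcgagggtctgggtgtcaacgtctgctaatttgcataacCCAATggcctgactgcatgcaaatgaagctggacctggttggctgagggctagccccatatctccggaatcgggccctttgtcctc
Gadd45b: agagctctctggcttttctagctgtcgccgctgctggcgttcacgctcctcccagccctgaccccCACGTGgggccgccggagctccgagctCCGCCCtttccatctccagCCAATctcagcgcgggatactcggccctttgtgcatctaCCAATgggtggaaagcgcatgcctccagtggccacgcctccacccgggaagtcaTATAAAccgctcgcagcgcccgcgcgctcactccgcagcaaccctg

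The motifs were searched on both strands, and the share of all 32851 RefSeq promoter windows of this length that hold each is given as a yardstick. They were AGATAA for GATA factors (9.99% of windows), GTAAACA for FoxO factors (3.17%), CACGTG for the E-box (6.02%), TGACGTCA for the cAMP response element (1.55%), CCAAT (33.8%), GGGCGG for the GC box (32.7%) and TATAAA for the TATA box (12.4%). The Btg2 window held the 8-base cAMP response element from -166 to -159, counted back from the base before the start as -1, beside CCAAT at -173 and -34. It also held 3 GC boxes, starting at -115, -110 and -100, of which the first overlaps the second by its last base. The Gadd45a window held 1 CCAAT at -86 and 1 GC box at -163 on the other strand, and no other of these motifs. Btg1 was the only member whose window held the FoxO letters, on the minus strand from -204 to -198, with TATAAA at -26. The Gadd45b window held an E-box at -185, CCAAT at -139 and -100 and TATAAA at -46. AGATAA was found in no member window, which says only that these letters are not in these 250 bases. GC content was 73.2% for Btg2, 65.2% for Btg1 and for Gadd45b, and 59.2% for Gadd45a, against a median of 52.4% over all windows. A match is a description of the sequence, not a bound site.

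Across the stages, 3 of the 7 genes tested differed, namely Btg1, Btg2 and Gadd45a (limma F-test over the 5 stages, adjusted p = 0.0376, 7.54e-04 and 3.18e-04). Of all genes tested, 36.9% passed this test. Adjusted p was 0.0979 for Tob2, 0.203 for Gadd45b, 0.389 for Tob1 and 0.805 for Gadd45g. The F-test result of Btg1 was lost with median centring (adjusted p = 0.127), with limma's default prior (0.0711) and without any of 7 arrays, namely replicate 2 of R1 or R5, replicate 1 or 3 of R2, or any replicate of R3 (0.052 to 0.093). The plot of each gene by stage shows these patterns. Its panels share a scale of differences but not of levels, since a signal of one probe set cannot be set against that of another.

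**Figure D1:**
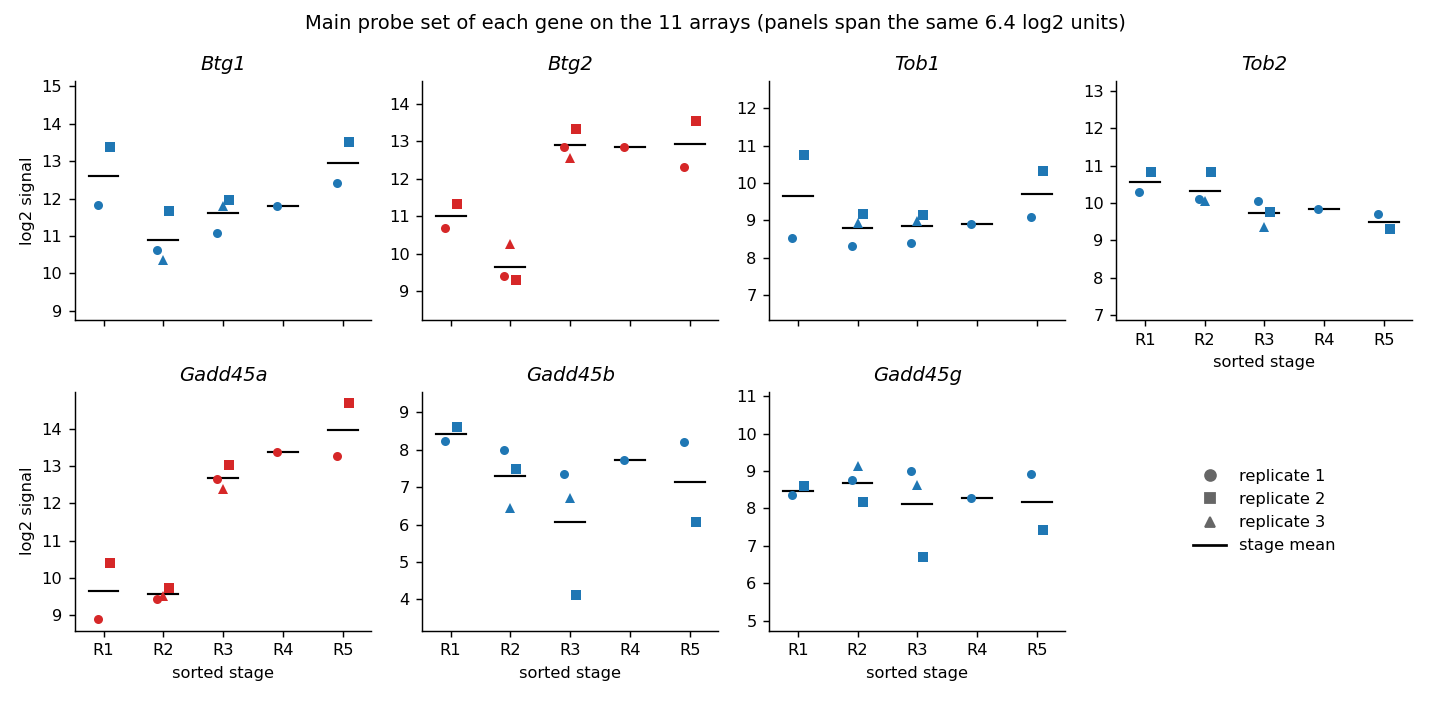
Log2 signal (vertical axis) of the main probe set of 7 genes on the 11 arrays, by sorted stage (horizontal axis); marker shapes give the replicate number and bars the stage mean, and red marks the genes called between R3 and R2. Btg2 and Gadd45a sit at 12.38 or higher on every R3 array and at 10.25 or lower on every R2 array, Btg1 is lowest in R2, and Gadd45b and Gadd45g have 1 low R3 array.

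Btg2, also known as Tis21 and Pc3, is an immediate-early gene and p53 target whose product recruits the Caf1 deadenylase. Its log2 signals were 10.68 and 11.33 on the R1 arrays, 9.39, 9.28 and 10.25 in R2, 12.85, 13.33 and 12.55 in R3, 12.86 in R4, then 12.32 and 13.55 in R5. The R1 arrays lay between those of R2 and those of the later stages without touching either. Stage means were 9.64 ± 0.53 in R2 (SD, n = 3), 12.91 ± 0.39 in R3 (n = 3) and 12.94 ± 0.87 in R5 (n = 2). Btg2 rose by 3.27 ± 0.40 log2 units from R2 to R3 (SE), a 9.64-fold difference (adjusted p = 9.21e-04). Relative to the median change of all genes the rise was 3.41 log2 units, and it stood at the 98.1st percentile of all changes. It was present in arrays of each replicate number, at 3.46, 4.05 and 2.30 log2 units. The order of the stages was R2, R1, R4, R3 and R5, and the last 3 do not differ beyond the spread of their arrays.

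Gadd45a, the member that p53 and FoxO factors induce after damage and growth factor loss, had like levels in R1 and R2, and its mean was higher at each later stage than at the one before. Its log2 signals were 8.91 and 10.41 in R1, 9.44, 9.73 and 9.53 in R2, 12.64, 13.04 and 12.38 in R3, 13.36 in R4, then 13.27 and 14.67 in R5. The R2 arrays fell inside the range of R1, every R3 array lay above all of these, and both R5 arrays lay above all R3 arrays. The rise from R2 to R3 was 3.12 ± 0.44 log2 units (SE), or 8.69-fold (adjusted p = 0.0017). Set against the median change of all genes it was 3.26. It measured 3.20, 3.31 and 2.85 log2 units within replicate numbers 1, 2 and 3. Between R1 and R5 Gadd45a rose by 4.31 ± 0.54 log2 units, or 19.8-fold (adjusted p = 4.94e-04). The further difference of 1.29 ± 0.49 log2 units between R3 and R5 did not pass the test (adjusted p = 0.211). Stage means spanned 4.41 log2 units, from R2 through R1, R3 and R4 to R5.

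Genes of hepatocytes, the other large cell population of the fetal liver, moved with Btg2 and Gadd45a. All 8 measured hepatocyte markers rose from R2 to R3, with a median of 3.96 log2 units. Albumin (Alb) rose by 4.09 ± 0.44 and apolipoprotein A1 (Apoa1) by 4.58 log2 units. The mean log2 signal of the list was 9.73 and 9.41 on the R1 arrays, 7.42, 8.90 and 8.40 in R2, 12.04, 12.74 and 11.60 in R3, 12.60 in R4, then 12.20 and 13.92 in R5. Within R3 and within R5 the arrays stood in the same order for this list, for Btg2 and for Gadd45a. Within R1 the list had the opposite order to both genes. Within R2 its order was that of Gadd45a but not of Btg2, which was lowest on replicate 2, where the list was highest. Such orders were not particular to hepatocyte markers. The mean of the FoxO list described below was 9.69 and 10.23 in R1. In R3 it was 9.64, 9.77 and 9.61, and in R5 10.64 and 10.96. Its arrays stood in the order of both genes within each of these stages, but in that of neither gene within R2. The 9 erythroid markers all rose from R2 to R3 as well. None of the 8 markers lay below the array median on every array of any stage. The part of these cells in the rises of Btg2 and Gadd45a was not tested. Of the other lists, 2 of 10 macrophage and 2 of 8 endothelial markers rose from R2 to R3, 1 of 6 mast cell and 2 of 8 progenitor markers fell, and none of 8 lymphocyte, 10 granulocyte or 8 megakaryocyte markers passed the test. Of all genes tested, 10.6% rose and 10.1% fell at this step.

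Btg1, a Btg2 paralog that is abundant in resting cells, was lowest in R2. Its log2 signals were 11.83 and 13.37 in R1, 10.62, 11.66 and 10.37 in R2, 11.06, 11.96 and 11.80 in R3, 11.79 in R4, then 12.41 and 13.52 in R5. Every R1 array lay above every R2 array, and both R5 arrays lay above all R3 arrays, while R1 and R5 overlapped. The difference from R1 to R2 was -1.71 ± 0.55 log2 units (SE, adjusted p = 0.218) and that from R3 to R5 was 1.35 ± 0.55 (adjusted p = 0.229), so that neither step passed the test. The 9 lymphocyte markers measured stood at a mean log2 signal of 8.37 and 10.43 on the R1 arrays, 7.28, 7.82 and 5.96 in R2, 6.43, 7.04 and 6.94 in R3, 7.30 in R4, then 8.47 and 8.54 in R5. This list was highest on replicate 2 of R1, Btg1 on replicate 2 of R5 and next on replicate 2 of R1. This course was not particular to lymphocyte markers. All 8 lymphocyte, 8 endothelial, 8 hepatocyte and 6 mast cell markers tested were lower in R2 than R1 and higher in R5 than R3. Of 8 progenitor markers, 1 was higher in R2 than R1 and 8 were higher in R5 than R3. Macrophage, granulocyte and megakaryocyte markers were mixed at both steps, and 8 of 9 erythroid markers were higher in R2 than R1. The part of any of these cells in the Btg1 differences was not tested. RefSeq lists a pair of X-linked genes, Btg1b and Btg1c, that were formerly named as Btg1 pseudogenes. Whether they contribute to the Btg1 signals was not tested.

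Tob1 and Tob2 are the longer members of the family, and both carry a C-terminal region that binds poly(A)-binding protein. Tob1 gave log2 signals of 8.54 and 10.74 in R1, 8.30, 9.17 and 8.92 in R2, 8.40, 9.15 and 8.99 in R3, 8.90 in R4, then 9.09 and 10.31 in R5. The arrays of all stages overlapped, and no comparison of Tob1 passed the test. Tob2 gave 10.30 and 10.82 in R1, 10.09, 10.83 and 10.06 in R2, 10.04, 9.76 and 9.37 in R3, 9.83 in R4, then 9.71 and 9.29 in R5. All R3, R4 and R5 arrays lay below all R1 and R2 arrays, although the nearest of R2 (10.06) and of R3 (10.04) were almost level. The share of all genes that separate in this way was not taken, and between R2 and R3 alone it was 49.9%. The differences of -0.60 ± 0.32 log2 units from R2 to R3 (adjusted p = 0.181) and of -1.06 ± 0.40 from R1 to R5 (adjusted p = 0.0831) did not pass. With each array centred on its median, both did (-1.01, adjusted p = 0.0457, and -1.64, adjusted p = 0.0168). Centring moved the median change of all genes between R2 and R3 from -0.14 to -0.55 log2 units and that between R1 and R5 from -0.31 to -0.89.

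Gadd45b and Gadd45g are the cytokine and growth factor inducible relatives of Gadd45a. Gadd45b gave log2 signals of 8.24 and 8.61 in R1, 8.003, 7.48 and 6.46 in R2, 7.35, 4.11 and 6.72 in R3, 7.73 in R4, then 8.22 and 6.07 in R5. Both R1 arrays were above all others, while replicate 2 of R3 and of R5 lay below the median of its array. Gadd45g gave 8.35 and 8.59 in R1, 8.77, 8.16 and 9.14 in R2, 9.01, 6.71 and 8.64 in R3, 8.28 in R4, then 8.92 and 7.42 in R5. Its stage means spanned 0.57 log2 units, less than the spread within R3 (SD 1.23, n = 3). The same replicate 2 arrays of R3 and R5 were the lowest for both genes. Neither gene passed the test in any comparison.

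The probe set that lists Btg3 with Gm7334 was not tested, and its signal cannot be assigned to Btg3, a relative of Btg1 and Btg2 also known as Ana. It gave log2 signals of 10.33 and 9.84 in R1, 10.66, 9.94 and 10.51 in R2, 11.37, 11.38 and 11.17 in R3, 10.99 in R4, then 10.99 and 11.39 in R5. Every array of R3 to R5 lay above every array of R1 and R2. The share of all genes whose arrays separate at this division was not taken. Between R2 and R3 alone the arrays of 49.9% of all genes tested did not overlap.

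Between R1 and R2, none of the 7 genes passed limma's test, and 2 had an unadjusted p under 0.05, Btg1 and Btg2. Of all genes 61 passed, or 0.466%, 75.4% of them higher in R2, against 87.7% with quantile normalization and 44.5% with 64 added to the intensities. Arrays of the stages did not overlap for 3 members, Btg1, Btg2 and Gadd45b, all lower in R2, against 36.3% of all genes. The difference of Btg2 was -1.37 ± 0.44 log2 units (SE, adjusted p = 0.222) and that of Gadd45b -1.11 ± 0.93. Those of the other members were -0.84 for Tob1, -0.23 for Tob2, -0.10 for Gadd45a and 0.22 for Gadd45g, and the median of the 7 was -0.84 beside -0.05 for all genes.

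Between R2 and R3, 2 of 7 members rose, Btg2 and Gadd45a, and none fell, while 10.6% of all genes rose and 10.1% fell. Of all genes called here 51.1% were higher, and 21.7% were with median centring, under which Btg2 and Gadd45a still rose and Tob2 fell. Arrays did not overlap for 3 members, the third being Tob2, against 49.9% of all genes. Their median difference was 0.05 log2 units beside -0.14 for all genes, with 4 of 7 above 0. Btg1 differed by 0.72 ± 0.49 (SE, adjusted p = 0.281), Tob1 by 0.05 ± 0.55, Gadd45b by -1.25 ± 0.83 and Gadd45g by -0.57 ± 0.60. This comparison shares the R2 arrays with the one of R1 and R2, so the high R3 against R2 and low R2 against R1 values of Btg2 and Btg1 are not independent.

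Between R3 and R5, none of the 7 genes passed, and neither did nearly any other gene (1 gene, or 0.00763%). Arrays did not overlap for Btg1 and Gadd45a, both higher in R5, against 36.4% of all genes. Of the 7 differences 6 were above 0 (4 with median centring or quantile normalization), with a median of 0.85 log2 units beside 0.20 for all genes. Btg2 differed by 0.03 ± 0.44 (SE), less than its error, which does not show that the levels were equal. Gadd45b differed by 1.09 ± 0.93 and Tob1 by 0.85 ± 0.61.

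Between R1 and R5, Gadd45a and Btg2 rose and no member fell, against 10.2% of all genes higher and 6.57% lower. Of all genes called, 60.8% were higher, and 20.6% with median centring. Btg2 rose by 1.93 ± 0.49 log2 units (SE), or 3.81-fold (adjusted p = 0.0248). Its result was lost with median centring (adjusted p = 0.0544), in a fit of R1 and R5 alone (0.094), and without replicate 1 of R1 (0.145), replicate 2 of R1 (0.0534) or replicate 2 of R5 (0.174). Arrays did not overlap for 4 members, Btg2 and Gadd45a higher and Tob2 and Gadd45b lower, against 64.7% of all genes. Btg1 differed by 0.37 ± 0.60, Tob1 by 0.06 ± 0.67, Gadd45b by -1.28 ± 1.02 and Gadd45g by -0.29 ± 0.73. The plot of changes sets the 4 comparisons side by side.

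**Figure D2:**
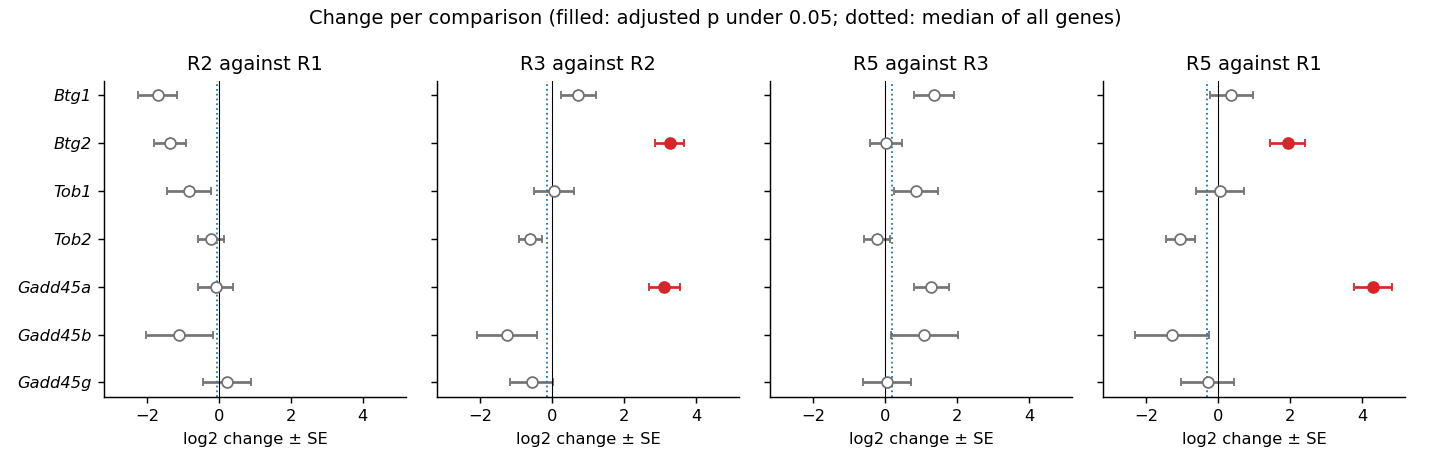
Log2 change with its standard error (horizontal axis) of the 7 genes in each of 4 comparisons, first stage minus second; filled red points passed an adjusted p of 0.05 and the dotted line is the median of all genes tested. Btg2 and Gadd45a are filled between R3 and R2 (3.27 and 3.12) and between R5 and R1 (1.93 and 4.31), and no gene is filled in the other comparisons.

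Whether relatives of one subfamily changed unequally was tested on the difference between their log2 signals on each array, which does not depend on the scaling of the array. The 5 arrays of R1 and R2 were set against the 6 of R3 to R5 in 5 pairs with an exact two-sided permutation test, whose smallest p over 462 regroupings is 0.00216. Btg1 minus Btg2 was 1.38 ± 0.88 (SD, n = 5) in the early and -0.82 ± 0.74 (n = 6) in the late arrays. The difference of -2.20 log2 units had the smallest p of the exact test (adjusted over 5 pairs, 0.0036). Single arrays gave 1.14 and 2.04 in R1, 1.23, 2.39 and 0.11 in R2, -1.78, -1.37 and -0.75 in R3, -1.07 in R4, then 0.08 and -0.03 in R5. The groups did not overlap, and the R5 arrays stood back near the lowest R2 array.

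Gadd45a minus Gadd45b was 0.67 and 1.80 in R1, 1.43, 2.25 and 3.07 in R2, 5.28, 8.93 and 5.66 in R3, 5.63 in R4, then 5.05 and 8.61 in R5. Its mean went from 1.84 ± 0.90 (SD, n = 5) to 6.53 ± 1.75 (n = 6), a shift of 4.68 log2 units (exact permutation p = 0.00216, adjusted 0.0036). The highest values, 8.93 and 8.61, came from the replicate 2 arrays of R3 and R5, on which Gadd45b lay below the array median, and the other late arrays gave 5.05 to 5.66. Gadd45a minus Gadd45g went from 1.00 ± 0.65 to 5.06 ± 1.46, a shift of 4.06 with the same exact p and adjusted p, and again with no overlap of the arrays. Gadd45b minus Gadd45g shifted by -0.62 (exact p = 0.29, adjusted 0.29) and Tob1 minus Tob2 by 0.75 (exact p = 0.16, adjusted 0.2), with overlapping arrays. Between these groups of arrays the shift thus differed between Gadd45a and both of its relatives, and between Btg1 and Btg2. The test treats arrays of different stages within a group as exchangeable. Its groups divide at the step where Btg2 and Gadd45a rose, so the low p-values restate those rises against the relatives. The same groups were fully apart in the control for RNA length, whose part in these shifts was not tested. Both Gadd45a pairs share that gene, and R2 against R3 alone has too few arrays for this test to pass. With the second probe set of both genes the Tob1 minus Tob2 shift was 3.02 (exact test, adjusted p = 0.0086), and with the mean over probe sets 1.11 (0.027). Both values use the Tob1 probe set that lies below the array median on all 11 arrays, so neither is read as a difference between the genes. The pair of main probe sets passed without replicate 2 of R1 (1.06, adjusted p = 0.0476).

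**Figure D3:**
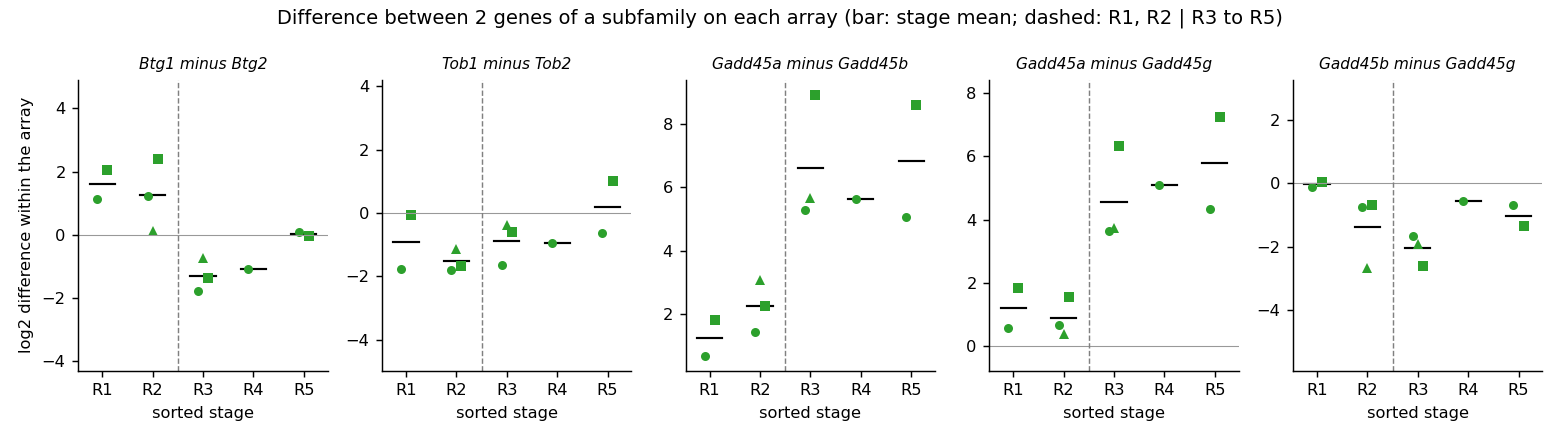
Log2 signal of one gene minus that of a relative on the same array (vertical axis) by sorted stage (horizontal axis), with marker shapes for the replicate number as in the plot of levels, bars for stage means and a dashed line between the 5 early and 6 late arrays. Early and late arrays are fully apart for Btg1 minus Btg2 and for Gadd45a minus either relative, and overlap in the remaining pairs.

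Several members were read by more than 1 probe set. Of the 17, 16 were tested in a fit over probe sets. The second probe set of Btg2 gave 8.48, 9.25 and 9.57 in R2 and 11.83, 12.78 and 11.91 in R3, and rose by 3.07 ± 0.46 log2 units (SE, adjusted p = 0.0024). It also rose between R1 and R5, by 2.34 ± 0.56 (adjusted p = 0.0199). The 3 probe sets of Btg1 differed between R1 and R2 by -1.71, -1.96 and -3.19, and between R3 and R5 by 1.35, 1.48 and 1.16, so their directions matched at both steps, with none past the test. From R1 to R5 they gave 0.37, 0.30 and -1.06.

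The 5 probe sets of Tob2 did not share a direction. Between R1 and R5 they gave -1.06, -1.16, 1.43, 0.47 and 0.46 log2 units, the first pair being probe sets whose identifiers (x_at and s_at) mark possible matches to other transcripts. The 3 of Gadd45b gave -1.25, -1.21 and -0.37 between R2 and R3 but -1.28, -0.91 and 1.78 between R1 and R5. The remaining Tob1 probe set lay below the array median on all 11 arrays. Gadd45a and Gadd45g had 1 probe set each, so the Gadd45a rise has no such check.

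**Figure D4:**
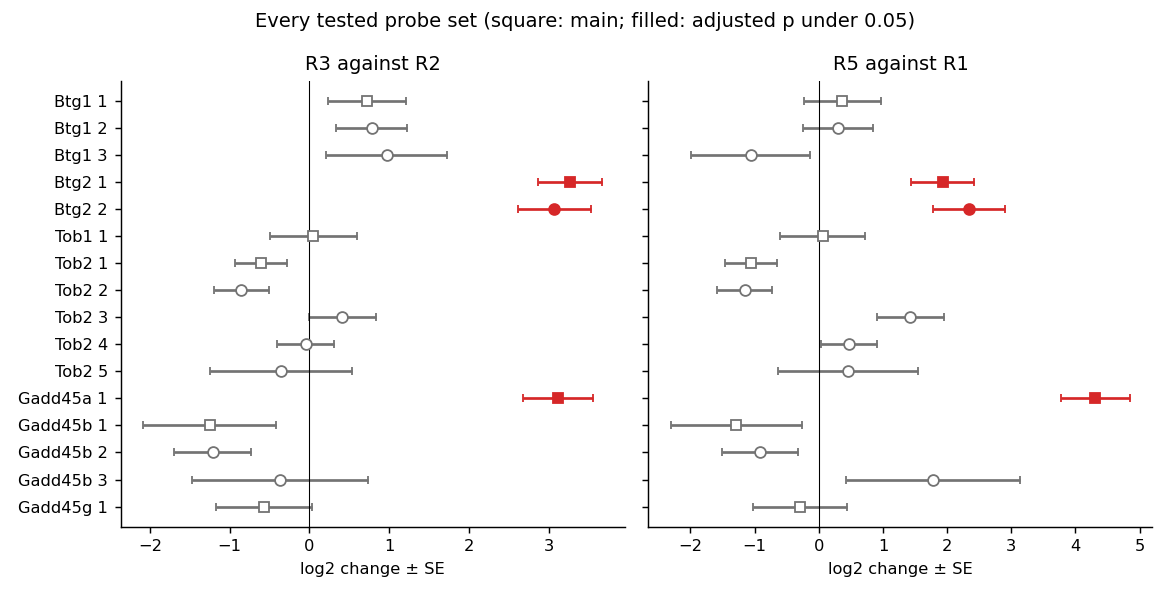
Log2 change with its standard error (horizontal axis) of the 16 tested probe sets of the 7 genes, for R3 minus R2 and for R5 minus R1; squares are main probe sets, circles the others and filled symbols passed an adjusted p of 0.05. Both Btg2 probe sets are filled in both panels, while those of Tob2 fall on both sides of 0.

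The single R4 array allows no test. There Gadd45a stood 0.68 log2 units above the R3 mean and Gadd45b 1.67 above it, both above all 3 R3 arrays. Those of Btg1, Btg2, Tob1, Tob2 and Gadd45g lay within the R3 arrays.

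The authors' deposited table sets each stage against R2. Its headings do not say whether its p-values were adjusted, so they are not set against the p-values of the fit here. In the authors' deposited table the R5 against R2 difference was 4.41 log2 units for Gadd45a (p = 0.00816) and 3.30 for Btg2 (p = 0.0137). For Btg1 the authors' deposited table gave 2.08 (p = 0.0712) for the main probe set and 2.26 (p = 0.0474) for the second, so that the threshold of 0.05 falls between these probe sets. For the F-test of Btg1 over all stages the authors' deposited table gave p = 0.0718 for the main probe set and 0.0285 for the second. The threshold falls between them there too. Its R3 against R2 p-values were 0.0199 for Btg2 and 0.0268 for Gadd45a in the authors' deposited table.

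The genes most like each member were found by Pearson's r of log2 signal over the 11 arrays, as a description without a test, since the arrays share their stages and their libraries. Genes with provisional symbols, such as those ending in Rik or starting with Gm or LOC and a number, were left out of the ranking. The 3 nearest to Gadd45a were Ube2h, a ubiquitin-conjugating enzyme, Bpgm, the enzyme of red cell 2,3-bisphosphoglycerate synthesis, and St3gal5, a ganglioside synthase, all at 0.99. Ube2h, for example, gave 9.44 and 10.89 in R1 against 14.45 and 15.68 in R5. The 3 nearest to Btg2 were F13b (0.98), Serpinb6b (0.97) and Plg (0.97). F13b lay below the array median on every R1 and R2 array, and Plg on replicate 1 of R2. F13b and Plg encode the coagulation factor XIII B chain and plasminogen, which are plasma proteins, plasminogen being made by hepatocytes. Plg gave 5.07, 6.26 and 6.61 in R2 and 10.02, 10.44 and 9.32 in R3.

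Nearest to Btg1 were Vwa5a (0.97), Ctdsp2 (0.96) and Dgat2 (0.94), and nearest to Tob1 were Sh3bgrl, Ddit4 and Pcmtd1 (all 0.93). Tob2 stood nearest to Rbm26 (0.94), Fam174a (0.94) and Acsl4 (0.93). Gadd45b stood nearest to Rsu1 (0.98), Zscan26 (0.98) and Lyplal1 (0.96), and Gadd45g to Npm1 (0.92), Hcfc1r1 (0.91) and Adcy9 (0.91). Between members, r was 0.92 for Btg2 and Gadd45a, 0.85 for Btg1 and Tob1, 0.71 for Gadd45b and Gadd45g and -0.73 for Tob2 and Gadd45a.

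A list of 17 genes held subunits of the Ccr4-Not complex that BTG and TOB proteins bind, other poly(A) tail genes and Prmt1. Of these 16 were tested, and between R2 and R3 1 rose and 2 fell, none of them a Cnot subunit. For this and the following lists, the shares of all genes tested at this step were 10.6% higher and 10.1% lower. Between R1 and R5 they were 10.2% and 6.57%, and between R1 and R2 0.466% in either direction. No list was tested against these shares. Pabpc1, the main poly(A)-binding protein, rose by 1.01 ± 0.21 log2 units (SE, adjusted p = 0.0116), Parn, a separate deadenylase, fell by 1.78 ± 0.52 and Prmt1, an arginine methyltransferase that BTG proteins bind, fell by 1.62 ± 0.48. None of the 10 Cnot subunits tested passed, with differences from -1.06 to 0.24. The Pabpc1 result was lost without replicate 1 or 2 of R2 (adjusted p up to 0.0535), that of Parn without replicate 1 or 2 of R3 or any array of R2 (up to 0.137) and that of Prmt1 without any of 7 arrays of R1, R2 and R3 (up to 0.142). With median centring none rose and 4 fell at this step, and with quantile normalization none rose and 1 fell. From R1 to R5, Pabpc1 rose by 2.06 and Pabpc4 by 1.90 log2 units, and Cnot3 fell by 1.38. With median centring 1 of the 16 rose and 7 fell between these stages. The result of Pabpc4 was lost without replicate 2 of R1 or of R5 (adjusted p up to 0.148) and that of Cnot3 without any of 8 arrays (up to 0.219). With quantile normalization Pabpc1 did not pass there (adjusted p = 0.0801), and the mean over the probe sets of Cnot3 did not differ in the same direction (0.0334).

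Of the genes that GADD45 proteins act on, 11 of 14 listed were tested, and between R2 and R3 2 rose and 2 fell. Map2k3, a kinase that activates p38, rose by 2.00 ± 0.26 log2 units (SE, adjusted p = 0.0012), and Pcna, the replication clamp, by 0.93 ± 0.27. Map2k6, another p38 activator, fell by 2.72 ± 0.61, and Mapk9, the JNK2 kinase, by 1.40 ± 0.30. The results of Map2k6 without replicate 1 of R2 (adjusted p = 0.0623), of Mapk9 without replicate 2 of R3 (0.0523) and of Pcna without any of 7 arrays (up to 0.119) were lost. With median centring 1 of the 11 rose and 5 fell. Map2k3 also rose from R1 to R5, by 2.40, and 3 genes fell, Map2k4 by 1.19, Mapk9 by 1.41 and Mapk14, which encodes p38 alpha, by 1.42. All 3 were lost without either R1 array or replicate 2 of R5 (adjusted p up to 0.131, 0.157 and 0.165), and Map2k4 also without 3 arrays of R2 and R3. The mean over probe sets gave -0.73 for Map2k4 (adjusted p = 0.155) and -0.68 for Mapk14 (0.348). With median centring 1 of the 11 rose and 7 fell between R1 and R5.

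Among 16 tested p53 targets of 19 listed, between R2 and R3 1 rose and 2 fell, beside 10.6% and 10.1% of all genes. Sesn1, a sestrin, rose by 1.33 ± 0.34 log2 units (SE), Ccng1, cyclin G1, fell by 1.77 ± 0.48 and Aen, an apoptosis nuclease, by 1.45 ± 0.40. Sesn1 also rose from R1 to R5, by 1.77, and Ccng1 fell by 1.91. With median centring none rose and 4 fell between R2 and R3, and the counts were the same between R1 and R5. Sesn1 then passed in neither comparison (adjusted p = 0.086 and 0.0703). Each of these results was lost without 1 or more single arrays (adjusted p up to 0.0929 for Sesn1, 0.0994 for Ccng1 and 0.117 for Aen between R2 and R3, and 0.132 for Sesn1 and 0.299 for Ccng1 between R1 and R5). At the step from R2 to R3 the arrays in question were replicate 1 of R2 and replicate 2 of R3 for all 3 genes, with further ones for Ccng1 and Aen.

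Among the 15 FoxO factors and target genes listed, all tested, 4 rose and 1 fell between R2 and R3. Foxo3 rose by 3.16 ± 0.27 log2 units (SE, adjusted p = 2.22e-04), and Foxo4 by 1.71 ± 0.36. Cdkn1b, the p27 inhibitor of cyclin-dependent kinases, rose by 2.43 ± 0.59 and Ccng2, cyclin G2, by 2.21 ± 0.67. Pik3ip1, an inhibitor of PI3-kinase, fell by 2.15 ± 0.62. Without replicate 1 of R2 the results of Foxo4 (adjusted p = 0.0521), Cdkn1b, Ccng2 and Pik3ip1 were lost, and those of the last 3 also without replicate 2 of R3 (0.0749 at most for Cdkn1b, 0.143 for Ccng2 and 0.122 for Pik3ip1). Ccng2 was also lost without replicate 3 of R2 or replicate 1 or 3 of R3 (0.067 to 0.0917), and Pik3ip1 without either R1 array, replicate 2 of R2 or replicate 3 of R3 (0.0523 to 0.128). The mean over probe sets gave 0.33 for Foxo4 (adjusted p = 0.684) and -1.61 for Pik3ip1 (0.0867), and with 64 added to the intensities Pik3ip1 was at -0.86 (0.0625). Between R1 and R5, 4 rose and none fell, with Foxo3 at 4.47, Cdkn1b at 2.90, Foxo4 at 2.88 and Cat, catalase, at 2.79. Cdkn1b and Cat were lost without replicate 1 of R1 or replicate 2 of R5 (adjusted p up to 0.17 and 0.199), Cat also with quantile normalization (0.0642) and Cdkn1b with the mean over probe sets (1.99, 0.108). Between R3 and R5 all 15 differences were above 0, with a median of 1.19 beside 0.20 for all genes, and none passed limma's test. With median centring 12 of the 15 were above 0 there, and between R2 and R3 3 rose and 2 fell, Ccng2 no longer passing (adjusted p = 0.057). Under the same centring 4 rose and 2 fell between R1 and R5.

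Immediate-early genes, the class to which Btg2 belongs, were mostly lower in R2 than in R1, at 17 of 18 tested, with a median of -2.29 log2 units beside -0.05 for all genes. Of these 2 passed, the phosphatase genes Dusp1, which fell by 2.04 ± 0.37, and Dusp2, by 2.34 ± 0.41 (SE), and each was lost without at least 7 of the single arrays (adjusted p up to 0.377 and 0.498) and with median centring (0.154 and 0.0782). Between R2 and R3 3 rose and 2 fell. Ier3 rose by 2.95 ± 0.39, Dusp1 by 2.57 ± 0.33 and Jund by 1.67 ± 0.29, while Junb fell by 1.80 ± 0.54 and Myd88, a receptor adaptor, by 1.43 ± 0.35. The results of Junb and Myd88 were lost without replicate 1 or 2 of either stage (adjusted p up to 0.144 and 0.0772). In R5 against R1, Jund rose by 2.26 and Ier3 by 1.77, and Ier2 fell by 2.30 and Myd88 by 2.00. With median centring 1 of the 18 rose and 8 fell between these stages. The results of Ier2, Ier3 and Myd88 were lost without either R1 array or replicate 2 of R5 (adjusted p up to 0.0997, 0.147 and 0.0729).

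Of 19 genes of dividing cells tested, 7 rose and none fell between R2 and R3, the step at which Btg2 and Gadd45a rose. With quantile normalization 3 rose and none fell, and with median centring 3 rose and 2 fell. Ccnd3, cyclin D3, rose by 1.80 ± 0.27 log2 units (SE), Mki67, the Ki-67 antigen, by 1.54 ± 0.24, Ccnb2, cyclin B2, by 1.38 ± 0.24 and Ccna2, cyclin A2, by 1.17 ± 0.27. The Ccna2 result was lost without replicate 1 or 2 of R2 or replicate 2 of R3 (adjusted p up to 0.0792) and with either scaling (0.0514 and 0.118). Between R3 and R5 16 of the 19 differences were below 0, with a median of -0.91 beside 0.20 for all genes, and none passed limma's test. With median centring 8 of the 19 fell at this step and none rose. In R5 against R1, Mki67 rose by 2.31, Ccna2 by 1.48 and Ccnb2 by 1.37, and Mcm3, a subunit of the replicative helicase, fell by 2.10. Ccna2 was lost without replicate 2 of R1 or R5 (adjusted p up to 0.0996) and Ccnb2 without either R1 array or replicate 2 of R5 (up to 0.0776). With quantile normalization the Mki67 difference was 1.24. With median centring 1 of the 19 rose and 3 fell between R1 and R5.

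Of the 21 results on listed genes between R1 and R5, 15 were lost in a fit of R1 and R5 alone (adjusted p from 0.0505 to 0.167), and Pabpc1, Map2k3, Foxo3, Foxo4, Ier2 and Mki67 passed there. With limma's default prior Dusp1 and Dusp2 were lost between R1 and R2 (0.118 and 0.0969), and Parn, Prmt1, Pcna, Ccng1, Ccng2 and Junb between R2 and R3 (0.0515 to 0.07). That prior also lost Cnot3, Ccng1, Cat and Ier3 between R1 and R5 (0.0509 to 0.0762). Median centring lost Pabpc4, Sesn1, Ier3, Ccna2 and Ccnb2 between R1 and R5 (0.0703 to 0.13). Other settings lost further results not listed here. Between R2 and R3, Foxo3, Map2k3, Ier3, Dusp1, Jund, Ccnd3, Mki67 and Ccnb2 passed under every alternative run.

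**Figure D5:**
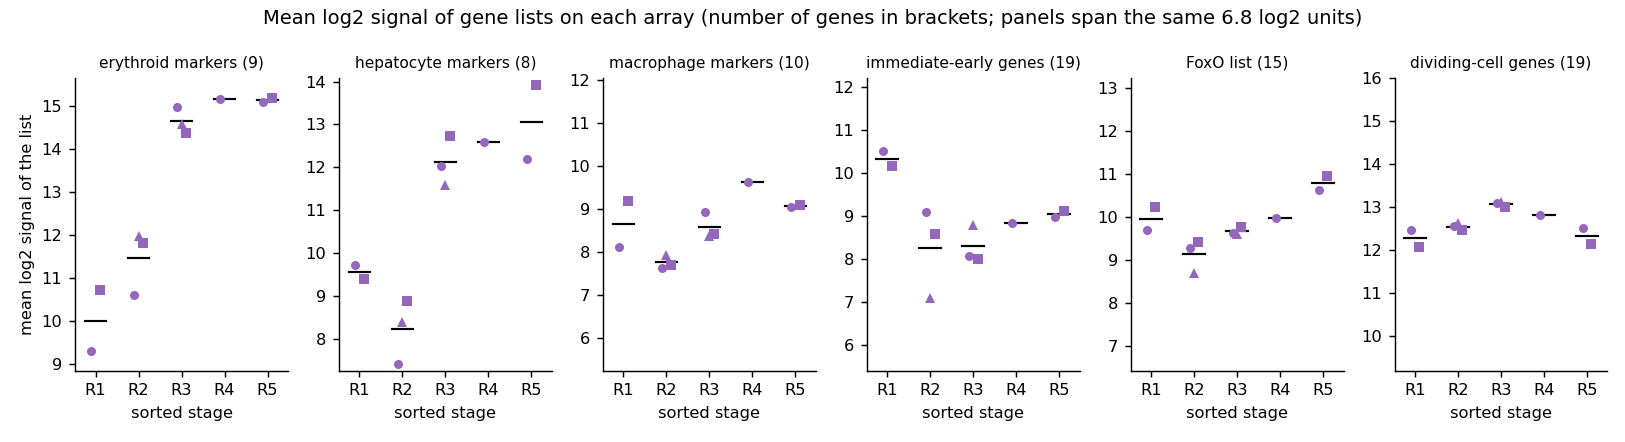
Mean log2 signal of 6 gene lists (vertical axis) on each array by sorted stage (horizontal axis), with the number of genes measured in brackets, marker shapes for the replicate number as in the plot of levels and bars for stage means. The erythroid and hepatocyte lists are higher on every R3 array than on every R2 array, the immediate-early list is highest in R1, and the FoxO list is highest in R5.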

How the data were processed

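Arrays measured total RNA of sorted fetal liver cells, 1 fraction on each. The authors deposited 1 MAS5-type signal intensity per probe set and array for 45101 probe sets (64 controls), and MAS5 and limma are named, without versions, in the submitters' processing notes. The authors' deposited table of log2 means, log2 ratios against R2 and p-values was used only where named. Which labelling step applied is not settled, since the labels name Cy5.

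Intensities were taken to log2 with no pseudocount or further normalization. The platform annotation gave the gene names (34945 with 1 gene, 932 with several, 9160 with none), and symbols updated by gene identifier. Per gene the probe set with the highest mean was kept, and tested where at or above the array median on at least 2 arrays. Stage means were fitted over all 11 arrays with limma 3.58.1 in R 4.3.3 (lmFit, eBayes with trend, 6 residual and 4.83 prior degrees of freedom), and p-values were adjusted by Benjamini-Hochberg over 13100 genes, with a call at 0.05. The steps were tested on simulated data. The 2 planned pairs with Btg3 could not be tested.

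Members, the 15 gene lists and the genes named (up to 4 called genes with the largest change per list and comparison, any called in the other direction, the 3 genes nearest to each member, and Tfrc) were chosen with earlier results of these data known. Alternatives were quantile normalization, median centring, adding 64 to the intensity, limma's default prior, other probe sets, no filter, only the stages compared, a replicate block and each array left out.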

Additional observations from a re-analysis of the deposited data

How the results depend on the processing

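Of the results on members, the calls of Btg2 and Gadd45a between R2 and R3 and of Gadd45a between R1 and R5 held under every alternative that could be run for them (Gadd45a has no second probe set). Members called between R1 and R5 numbered 1 in place of 2 with only the stages compared and with the second probe sets, and 1 to 2 without single arrays. Members called between R2 and R3 numbered 1 with the second probe sets, which were bright enough to be tested for 4 members only, Btg1, Btg2, Tob2 and Gadd45b. With R2 against R3 alone, where an exact test of 3 against 3 arrays cannot go below 0.1, the pair shifts were -2.54 for Btg1 minus Btg2, 4.37 for Gadd45a minus Gadd45b and 3.69 for Gadd45a minus Gadd45g (adjusted p = 0.167). Tob1 minus Tob2 was 3.02 with the second probe sets and 1.11 with the mean over probe sets, values that rest on a Tob1 probe set below the median of every array, and with the main probe sets it ranged from 0.45 to 1.06 without single arrays.

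Differences that did not pass in the report turned sign as follows. With quantile normalization they were -0.0717 (Btg2) and -0.20 (Gadd45g) between R3 and R5 and -0.0797 (Btg1) between R1 and R5. With median centring they were 0.12 (Tob2) and 0.26 (Gadd45a) between R1 and R2, -0.36 (Tob1) between R2 and R3, -0.51 (Btg2) and -0.48 (Gadd45g) between R3 and R5, and -0.22 (Btg1) and -0.53 (Tob1) between R1 and R5. With other probe sets, Tob2 was 0.0257 or 0.55 between R3 and R5, and with the mean over probe sets Btg1 was -0.13, Tob2 0.0277 and Cnot3, called in the report, 0.0334 between R1 and R5. The ranges without single arrays that cross 0 were -0.41 to 1.14 (Btg1), -1.05 to 1.16 (Tob1) and -1.04 to 0.45 (Gadd45g) between R1 and R5, -1.95 to 0.26 (Tob1), -0.49 to 0.0324 (Tob2), -0.85 to 0.65 (Gadd45a) and -0.0018 to 0.49 (Gadd45g) between R1 and R2, -0.20 to 0.27 (Tob1) and -1.01 to 0.13 (Gadd45g) between R2 and R3, and -0.59 to 0.64 (Btg2) and -0.70 to 0.80 (Gadd45g) between R3 and R5. The cause was not tested.

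Deviations of same-numbered arrays correlated above 0.1 in 10 of 13 pairs but not in all (r from -0.15 to 0.40), and the labels do not say whether the number marks a shared extraction date, so pairing is possible but was not established and the fit without the block was kept. The 13 pairs are not independent. With 2 arrays each in R1 and R5, the R1 and R5 pairs of both replicate numbers share 1 value by construction (r = 0.25). Pairs of arrays with different numbers were not set beside these. With a replicate block, Gadd45g between R1 and R2 was -0.0188, Tob2 between R1 and R5 passed (-1.06, adjusted p = 0.0491), and no other member gained or lost a call. Genes called over the whole array were 2716 between R2 and R3, against 4197 with the block and 840 without replicate 1, 1095 without replicate 2 of R2 and 845 without replicate 2 of R3, and 2195 between R1 and R5, against 3735 with the block, 4520 with median centring, 700 with only these stages, 752 and 952 without replicate 1 and 2 of R1, 4340 and 631 without replicate 1 and 2 of R5. Between R1 and R2 the 61 became 0 with the block, limma's default prior, only these stages or without several arrays, 100 with centring and 119 with 64 added, and between R3 and R5 the 1 gene became 14, 112, 169, 588 and 633 with quantile normalization, 64 added, the block, centring and without replicate 1 of R5. Signals below the array median (Gadd45b on 2 arrays) are near the limit of what the arrays measure.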
